A study of Mus musculus with 12 samples.

Results

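Krüppel-like factors (Klf) are zinc-finger transcription factors, and 10 of them were followed here as tagged proteins through 3 functional screens in mouse embryonic stem (mES) cells. The members were grouped by their known roles, and were chosen with earlier results of these data known. They were Klf2, Klf4 and Klf5, which belong to the pluripotency network of mES cells, Klf3, Klf8 and Klf12, which bind the corepressor CtBP, and Klf10, Klf11, Klf13 and Klf16, which bind the corepressor Sin3. All 10 are among the 20409 genes of the insertion tables.

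The screens used ORFtag. A retrovirus brings a promoter, a tag and a splice donor to many places in the genome, so that a gene downstream of the inserted cassette can be transcribed from it and its protein made with the tag at the N-terminal side. Cells whose reporter responded were sorted, and the insertions in sorted and unsorted cells were mapped by sequencing. In the activator screen TetR, a DNA-binding domain, served as the tag, in wild-type cells whose puromycin and GFP reporter stood behind TetO sites and the MYLPF minimal promoter at a locus of stable expression on chromosome 15, and GFP-positive cells were sorted. In the repressor screen the tag was again TetR, the TetO sites at that locus lay between a BFP gene with the pEF1 promoter and a GFP gene with the constitutively active pPGK promoter, and GFP-negative cells were sorted. In the post-transcriptional gene regulation (PTGR) screen the tag was the λN peptide, which binds the boxB elements that follow GFP in the randomly integrated reporter. Cells low in GFP were sorted repeatedly, the boxB elements were then removed by an inducible Cre recombinase (CreERT2), and cells with GFP restored were kept in a last sort. All cells were diploid mES cells derived from a haploid line, grown with LIF and without feeder cells, and each reporter line was 1 clone. Each screen had 2 sorted replicates and 2 unsorted ones, 12 libraries in all. Cassettes in all reading frames were mixed, and their PGK promoter, not the gene's own, drove each tagged protein, so neither the gene's own expression nor the untagged protein was measured.

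Klf proteins bind GC-rich and CACCC-box DNA through 3 zinc fingers at the C-terminal end, while the N-terminal part differs between members and recruits cofactors. Klf3, Klf8 and Klf12 contact CtBP through a short PxDLS-type motif, and CtBP brings histone deacetylases and the demethylase Kdm1a to a promoter. Klf10, Klf11, Klf13 and Klf16 contact Sin3 through a short helix near the N-terminus, and Sin3 is the scaffold of another histone deacetylase complex. Klf2, Klf4 and Klf5 act on shared targets that keep mES cells undifferentiated, and Klf4 is also a reprogramming factor.

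The sorted libraries held between 14705 and 60980 insertions assigned to a gene within 200 kb, and the unsorted libraries between 54088 and 233799. Enrichment was tested for each gene as an odds ratio of its insertions against all others, with the 2 sorted libraries of a screen summed and set against all 6 unsorted libraries, called the background. The 3 screens therefore share 1 background. A gene was called when a one-sided Fisher's exact test gave an adjusted p under 0.001 and the log2 odds ratio was at least 1, over genes with 3 or more sorted insertions. Standard errors of log2 odds ratios, the 95% Wilson intervals of shares and the limits for a count of 0 (3 counts) cover counting error only. The median log2 odds ratio of genes with 50 or more background insertions and at least 1 sorted insertion was −0.62 in the activator, −1.04 in the repressor and −0.17 in the PTGR screen, and values below 0 are to be read against these. With 2 replicates against 2, an exact permutation test over libraries cannot give a two-sided p below 0.333.

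The part of each coding region that lies downstream of an insertion follows from the exon an insertion is assigned to, which in these tables is the nearest downstream exon with a splice acceptor. At the acceptor with the most insertions, the whole coding region of Klf3, Klf8 and Klf12 lay downstream, as did 99.7% of that of Klf4, 97.5% of Klf10, 97.2% of Klf11, 93.2% of Klf2 and 83.0% of Klf5. Klf13 and Klf16 were different, because 66.9% and 60.3% of their coding sequence is in exon 1, which has no acceptor. The part downstream was 33.1% of Klf13, from residue 194 of 289, and 39.7% of Klf16, from residue 152 of 251, and in both it held 2 of the 3 zinc fingers and not the N-terminal end. A search of the 10 translated coding regions found the PxDLS-type motif in Klf3 at residue 61, in Klf8 at residue 83 and in Klf12 at residue 81, and in no other member. Transcripts that join the cassette to these exons were not measured here, so each assignment is that of the nearest acceptor.

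**Figure D1:**
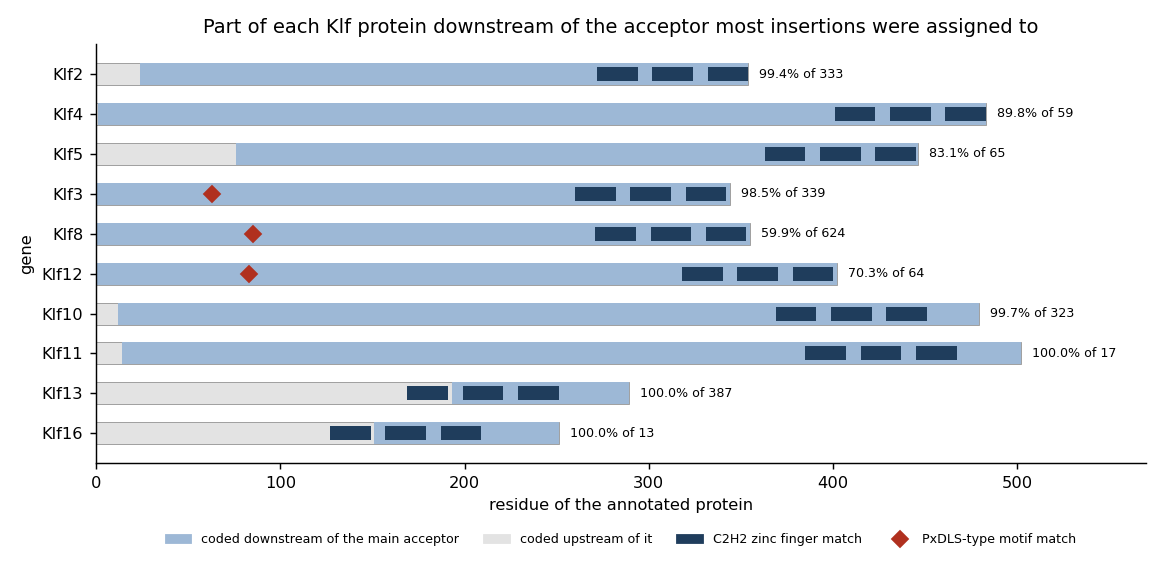
Coding region of each of the 10 Klf genes in residues from the start codon (x axis, linear), with the part downstream of the splice acceptor that took the most insertions, the 3 zinc fingers and the PxDLS-type motif marked, and at the right the percent of the gene's background insertions assigned to that acceptor. The motif lies in Klf3, Klf8 and Klf12 and inside their downstream part, while the downstream parts of Klf13 and Klf16 hold only 2 of the 3 fingers.

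The acceptors that took the insertions of the CtBP-binding members are given below on the strand of the gene in GRCm38 (mm10), because every value for these genes rests on them, and those of Klf13 and Klf16 because they start the shortened parts. The last 20 intron bases are in lower case and the first 10 exon bases in capitals. Klf8 has 2 such acceptors that took most insertions, in exon 2 of different transcripts (upstream, chrX:153308832-153308861, plus strand, and downstream, chrX:153359822-153359851, plus strand). The others are exon 2 of Klf3 (chr5:64816715-64816744, plus strand), exon 2 of a Klf12 transcript (chr14:100149786-100149815, minus strand), the last exon of Klf13 (chr7:63891788-63891817, minus strand) and that of Klf16 (chr10:80569213-80569242, minus strand).
Klf8 upstream acceptor: tgtactattatgtgccatagGAAGCCAGCT
Klf8 downstream acceptor: ttttcctcctttctttttagGAAGGCGCCG
Klf3 acceptor: catgccgttttgttttctagGCCAGACATC
Klf12 acceptor: ttactatgcttcctttgcagGATCAATGTG
Klf13 acceptor: tctgtcccccttccccgcagGTGAGAGGCC
Klf16 acceptor: ggttactcttccttgtccagGTGAGCGGCC

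The start codon lies 39 bases into the sequence that follows the Klf3 acceptor, with no stop codon in frame with it in between. It lies 75 bases after the upstream and 313 bases after the downstream Klf8 acceptor, and 31 bases after that of Klf12, and in these 3 stretches there is a stop codon in frame with the start codon, so that a tag read into them in the frame of the protein meets a stop first. The coding DNA of the CtBP-binding motif is printed with the 15 motif bases in capitals, since the search found it in these 3 proteins and in no other member. It lies in exon 3 of Klf3 (chr5:64821991-64822020, plus strand), exon 5 of Klf8 (chrX:153382677-153382706, plus strand) and exon 3 of Klf12 (chr14:100023028-100023057, minus strand), downstream of the acceptors above.
Klf3 motif: gtggagCCGGTGGACCTCACGgtgaacaag
Klf8 motif: gtggaaCCTGTTGATCTCTCCtttcacaaa
Klf12 motif: actgagCCAGTGGACTTGTCAatcaacaaa

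In the repressor screen Klf8 and Klf3 were enriched and no other member was called. That is 2 of the 7 members tested, where 8.18% of the 2346 genes tested were called. The activator screen called 0 of 7 members tested, against 4.64% of 2842 genes, and the PTGR screen 0 of 7, against 0.666% of 9303 genes. Summed over the 3 CtBP-binding members, the repressor sorted libraries held 402 insertions, against 13 for the 3 pluripotency members and 10 for the 4 Sin3-binding members. The background held 1027, 457 and 740 for the same groups. Within the CtBP-binding group the 402 insertions were very uneven, with 356 at Klf8, 45 at Klf3 and 1 at Klf12.

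**Figure D2:**
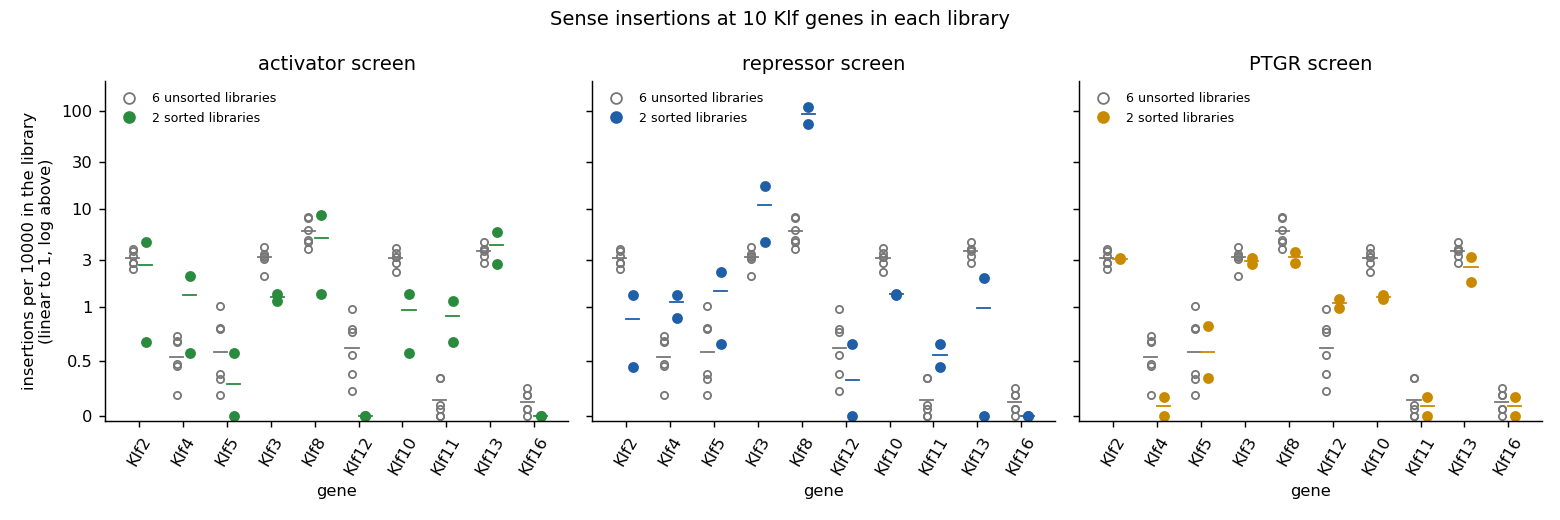
Insertions on the gene's strand per 10000 insertions of a library (y axis, linear up to 1 and logarithmic above) at the 10 Klf genes, in 1 panel per screen, with open circles for the 6 unsorted libraries, filled circles for the 2 sorted ones and short lines at their means. The 2 repressor sorted libraries stand at 110 and 73.7 for Klf8, above the 3.88 to 8.21 of the 6 unsorted libraries.

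A second test, edgeR's quasi-likelihood test with the 2 sorted and the 2 unsorted libraries of 1 screen, kept 5 members after its filter on low counts (Klf2, Klf3, Klf8, Klf10 and Klf13). In the repressor screen it called Klf8 and Klf3 higher and no member lower, against 7.2% of 2779 genes called higher and 1.15% called lower. There 3 members had an unadjusted p under 0.05, the third being Klf13 (−1.57 ± 0.76 SE, edgeR adjusted p 0.214). Over all genes 558 of the 2779 had such a p in that fit. Scaled by library size alone in place of TMM, the median gene of that fit moved from −0.37 to −1.52, the calls over all genes went from 200 higher and 32 lower to 180 higher and 1338 lower, and Klf2, Klf10 and Klf13 were then called lower. In the activator screen edgeR called 0 members, with 1 at an unadjusted p under 0.05 (Klf10), and in the PTGR screen 0, with 0 at an unadjusted p under 0.05. Over all genes 330 of 2998 in the activator and 103 of 1696 in the PTGR screen had an unadjusted p under 0.05. DESeq2 called 0 members in both screens. The shares called over all genes were 4.0% higher and 0.0667% lower in the activator and 2.24% and 0.236% in the PTGR screen.

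**Figure D3:**
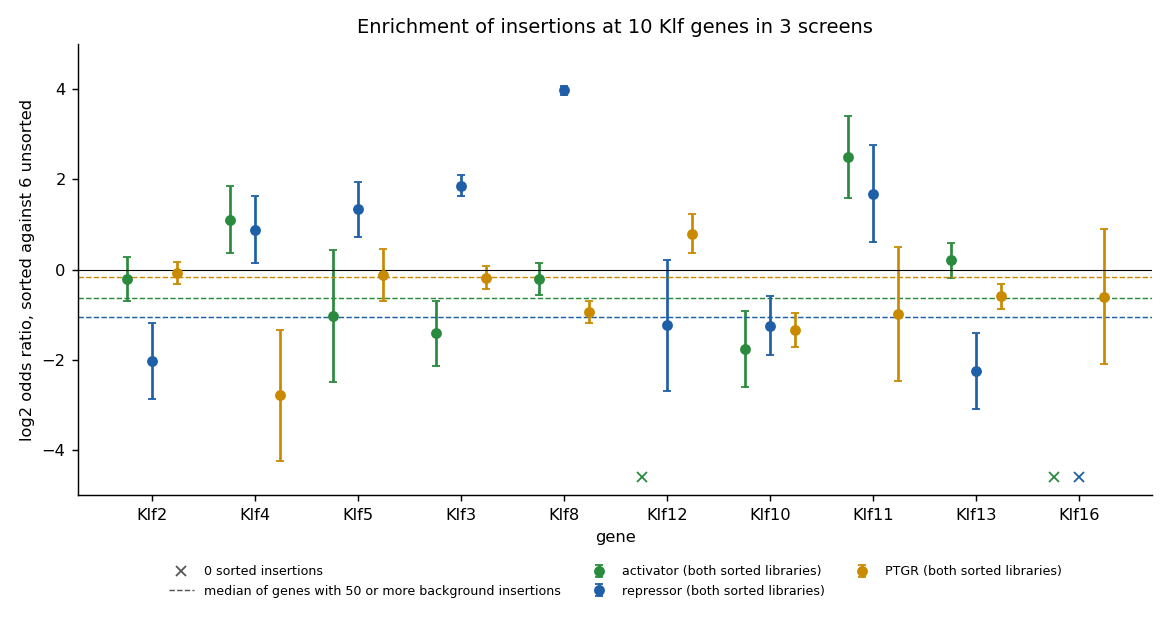
Log2 odds ratio (y axis) of each Klf gene in the 3 screens, with both sorted libraries set against the 6 unsorted ones, bars of 1 counting standard error, crosses for genes with 0 sorted insertions and dashed lines at the median of genes with 50 or more background insertions. Klf8 at 3.97 and Klf3 at 1.86 in the repressor screen are the called values.

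Klf8 (chromosome X, 153237466-153396132, plus strand) is a repressor that is also known for its part in cell migration, and it had the most insertions of any member. The repressor sorted replicates held 244 and 112 insertions, that is 110 and 73.7 per 10000 insertions of the library (mean 91.6 ± 25.4, SD, n = 2). The unsorted replicates of the same screen held 143 and 141, or 8.21 and 7.97 per 10000, and the 6 unsorted libraries ranged from 3.88 to 8.21 with a mean of 5.92 ± 1.82 (SD, n = 6). Both sorted values lay far above every unsorted one. The log2 odds ratio was 3.97 ± 0.10 (SE), an odds ratio of 15.7 (95% interval 13.8 to 17.9), with a Fisher adjusted p of 2.43e-248. Each replicate alone was also called, at 4.18 ± 0.11 and 3.60 ± 0.15 (SE). In edgeR the log2 fold change was 4.33 ± 0.27 (SE) with an adjusted p of 2.19e-53.

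In the other screens Klf8 was not called, and its summed libraries lay near or below the background. The activator sorted replicates held 15 and 2 insertions (8.62 and 1.36 per 10000), so that 1 lay above and 1 below the range of the unsorted libraries, and the log2 odds ratio was −0.21 ± 0.35 (SE). The PTGR sorted replicates held 17 and 21 (2.79 and 3.59 per 10000), both below the lowest unsorted library. This gave −0.94 ± 0.24 (SE) as the log2 odds ratio. Against each screen's own unsorted libraries, edgeR gave 0.32 ± 0.43 (SE) in the activator and −0.38 ± 0.35 (SE) in the PTGR screen, and made no call.

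Klf3 (chromosome 5, 64803388-64832901, plus strand), a repressor of CACCC-box promoters that works with CtBP, was enriched in the repressor screen mainly through 1 replicate. The sorted replicates held 38 and 7 insertions, 17.1 and 4.60 per 10000, and the 6 unsorted libraries between 2.03 and 4.05. Both sorted values were above all unsorted ones, but the second by little. The log2 odds ratio was 1.86 ± 0.23 (SE), an odds ratio of 3.62 (95% interval 2.66 to 4.95), with a Fisher adjusted p of 6.33e-11. Replicate 1 alone gave 2.37 ± 0.25 (SE) and a Fisher adjusted p of 6.96e-14, while replicate 2 alone gave 0.47 ± 0.55 (SE) and a Fisher adjusted p of 0.584, so the call is lost without replicate 1. In edgeR the log2 fold change was 2.69 ± 0.33 (SE) with an adjusted p of 8.72e-15. Klf3 held 2 and 2 insertions in the activator sorted libraries (−1.41 ± 0.73, SE) and 19 and 16 in the PTGR ones (−0.18 ± 0.26, SE), and neither was called.

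Klf12 (chromosome 14, 99870632-100284679, minus strand), a repressor of the AP-2 alpha gene, carries the same type of motif and was too sparse to judge. The repressor sorted libraries held 0 and 1 insertions, against 17 and 14 in the unsorted libraries of that screen and 64 in the background. The odds ratio of 0.426 had a 95% interval from 0.0591 to 3.07, and the gene fell short of the 3 insertions needed for the test. The upper end of this interval lies below the lower end of that of Klf8 and overlaps that of Klf3. In the activator screen 0 insertions were sorted, which allows up to 0.935 per 10000, close to the highest of the unsorted libraries (0.975). In the PTGR screen the sorted replicates held 6 and 7, for a log2 odds ratio of 0.80 ± 0.44 (SE) and a Fisher adjusted p of 0.477.

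Whether the enrichment differed between screens was tested in 1 edgeR fit over all 12 libraries, a contrast added after the values were seen. The sorted-to-unsorted change of Klf8 was larger in the repressor than in the activator screen by 4.06 ± 0.51 (SE) on the log2 scale and larger than in the PTGR screen by 4.77 ± 0.48 (SE), with edgeR adjusted p of 1.33e-09 and 3.51e-13. For Klf3 the differences were 3.93 ± 0.69 and 2.54 ± 0.49 (SE), with edgeR adjusted p of 7.44e-06 and 5.38e-05. Klf2, Klf10 and Klf13 passed in neither contrast. So 2 of 5 members passed in each, where 8.21% and 6.46% of 2569 genes did in either direction. Between the activator and the PTGR screen 0 of 5 members passed, against 3.93% of genes.

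Orientation gives a control inside each library, because the cassette can only make a tagged protein when it lies on the strand of the gene. Over all 10 Klf genes, 95.1% (92.1 to 97.0%) and 91.6% (85.9 to 95.1%) of the insertions of the repressor sorted replicates were on the gene's strand, against 52.1% (50.6 to 53.6%) in the 6 unsorted libraries together. In the unsorted libraries of the repressor screen itself the shares were 54.2 and 55.3%. Klf8 and Klf3 held most of the repressor sorted insertions. The other 8 genes together had 12 on the gene's strand and 6 on the opposite one in replicate 1 (66.7%, 43.7 to 83.7%) and 12 and 5 in replicate 2 (70.6%, 46.9 to 86.7%), and both intervals include their background share of 52.8%. In the activator screen the sorted shares of the 10 genes were 56.3% (44.8 to 67.3%) and 51.7% (34.4 to 68.6%). In the PTGR screen they were 53.1% (45.4 to 60.7%) and 43.5% (37.0 to 50.2%), the second interval lying below the 52.1% of the 6 unsorted libraries. The PTGR screen's own unsorted libraries gave 52.5% (49.2 to 55.8%) and 47.4% (40.0 to 54.8%).

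The insertions of the 2 called genes were mostly on one strand. At Klf8 97.6% (94.9 to 98.9%) and 95.7% (90.4 to 98.2%) of insertions in the repressor sorted replicates were on the gene's strand, against 50.3% in the background. The insertions on the opposite strand numbered 6 and 5, against 616 in the background, a log2 odds ratio of −0.78 ± 0.44 (SE) that was not called. At Klf3 the shares were 92.7% (80.6 to 97.5%) and 77.8% (45.3 to 93.7%) against 52.8%, and the opposite strand held 5 insertions in all against 303, a log2 odds ratio of −0.89 ± 0.65 (SE). The second Klf3 share rests on 9 insertions and its interval includes the background value.

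**Figure D4:**
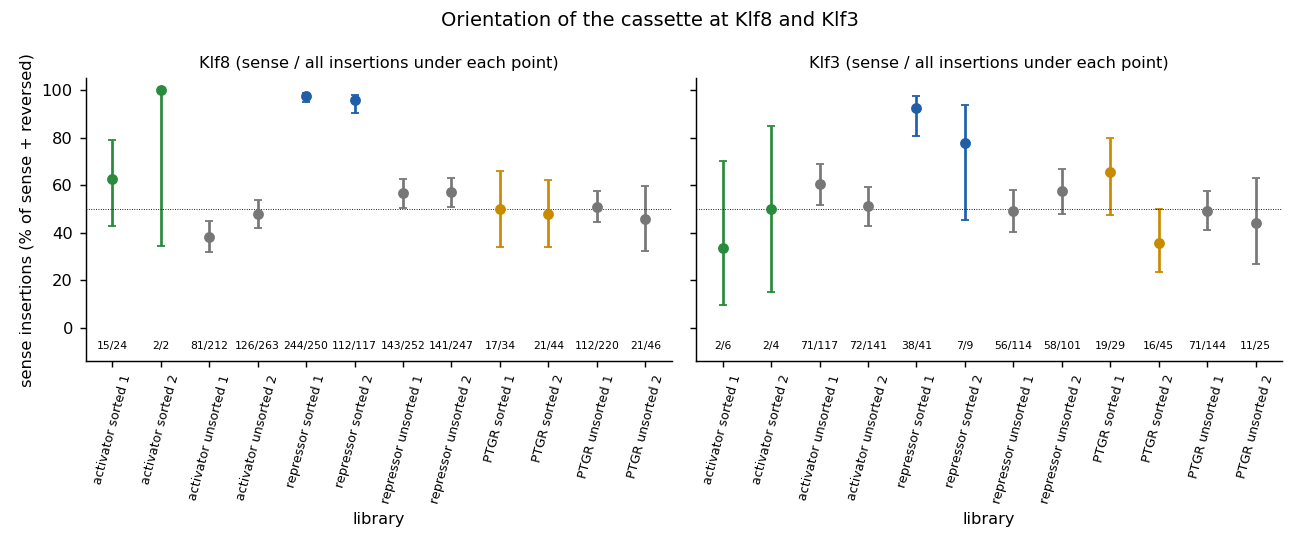
Percent of insertions on the strand of the gene (y axis) at Klf8 and Klf3 in each of the 12 libraries (x axis), with 95% Wilson intervals, a dotted line at 50% and the counts behind each point at the foot. In the repressor sorted libraries Klf8 stands at 97.6 and 95.7% and Klf3 at 92.7 and 77.8%.

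The repressor sorted insertions at both called genes also lay closer to the acceptor than the background did. By median the distance was 24464 bp for sorted and 26613 bp for background insertions at Klf8, where the difference lay in the far insertions. There 352 of 356 sorted insertions were within 50 kb of the acceptor (98.9%, interval 97.1 to 99.6%), against 484 of 624 in the background (77.6%, 74.1 to 80.7%), and the replicates gave 99.2 and 98.2%. Only 2 of the 356 were upstream of the annotated gene, against 122 of 624. At Klf3 40 of 45 sorted insertions were within 50 kb (88.9%, 76.5 to 95.2%), against 102 of 339 (30.1%, 25.5 to 35.2%), with 92.1 and 71.4% in the replicates. The median distance to the Klf3 acceptor was 6057 bp for sorted and 79238 bp for background insertions. Most background insertions assigned to Klf3, 279 of 339, were upstream of the annotated gene, and of the sorted ones 6 of 45 were. The unsorted libraries of the repressor screen had 79.7 and 75.9% of Klf8 insertions and 35.7 and 43.1% of Klf3 insertions within 50 kb.

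Counting only insertions inside the annotated genes brought both members to a like enrichment in the summed libraries and in replicate 1, but not in replicate 2. The summed repressor log2 odds ratio was then 4.28 ± 0.10 (SE, 354 sorted insertions against 502) for Klf8 and 4.15 ± 0.30 (SE, 39 against 60) for Klf3, a difference smaller than 1 standard error of the Klf3 value. Replicate 1 alone gave 4.49 ± 0.11 (SE, 243 sorted insertions) for Klf8 and 4.70 ± 0.31 (SE, 34) for Klf3. Replicate 2 alone gave 3.90 ± 0.15 (SE, 111) and 2.49 ± 0.67 (SE, 5), so the likeness rests on replicate 1. Upstream of the genes neither was enriched, with −1.16 ± 1.03 (SE, 2 against 122) for Klf8 and −0.77 ± 0.60 (SE, 6 against 279) for Klf3. This split was made after the values were seen. It restricted only the counts of these genes, and the totals they were set against still held all insertions within 200 kb. With the assignment limited to 50 kb for all genes, the Fisher log2 odds ratio of Klf3 was 3.14, with an adjusted p of 1.00e-20, and that of Klf8 was 4.05.

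**Figure D5:**
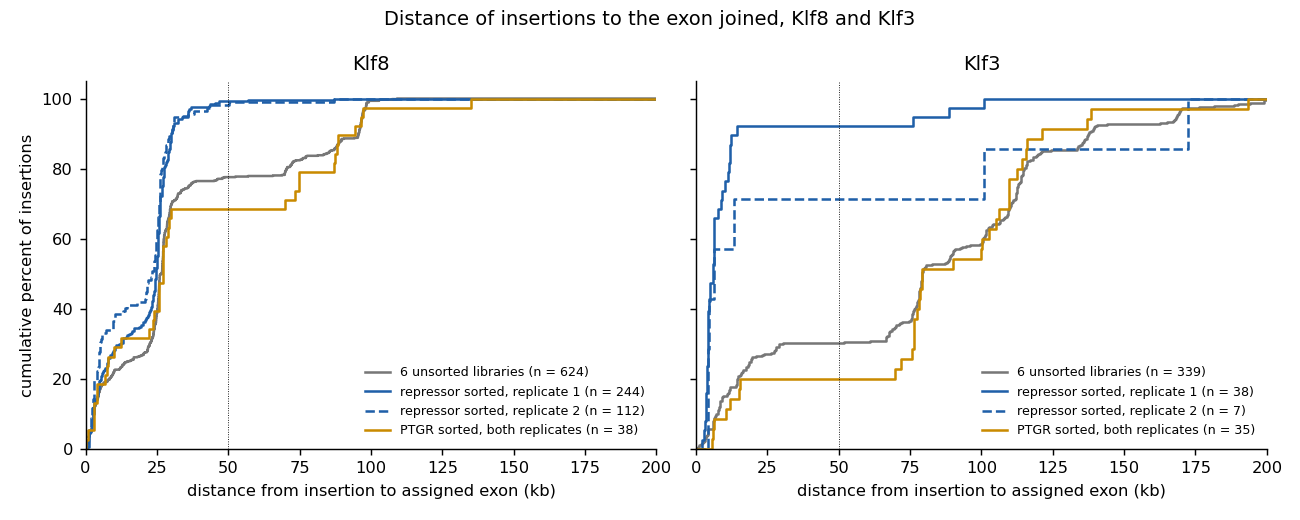
Cumulative percent of insertions (y axis) by distance to the assigned splice acceptor in kb (x axis) at Klf8 and Klf3. The curves are for each repressor sorted replicate, both PTGR sorted replicates together and the 6 unsorted libraries together. At 50 kb the Klf3 curves stand at 92.1 and 71.4% for the sorted replicates and at 30.1% for the background.

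The Klf8 insertions used several acceptors, and each of the 3 with more than 2 sorted insertions was enriched. The upstream acceptor held 158 sorted against 374 background insertions, a log2 odds ratio of 3.53 ± 0.14 (SE). The downstream one held 174 against 224, or 4.41 ± 0.15 (SE), and the acceptor of the exon that holds the start codon (position 153370845) held 21 against 24, or 4.58 ± 0.43 (SE). The downstream acceptor took 48.9% (43.7 to 54.1%) of sorted and 35.9% (32.2 to 39.7%) of background insertions. This share was 47.1 and 52.7% in the repressor sorted replicates and between 25.9 and 42.0% in the 6 unsorted libraries. In all, 354 of the 356 sorted Klf8 insertions were assigned to an acceptor ahead of the whole coding region. Of these, 332 (93.3% of 356) were at an acceptor with a stop codon in frame before the start codon and 22 at one without, against 598 (95.8%) and 25 of 624 in the background. Which exons the tag was joined to in the sorted cells was not measured. All 45 sorted Klf3 insertions were assigned to the exon 2 acceptor.

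Some positions occurred in both repressor sorted replicates. At Klf8 this was so for 32 of 324 distinct positions, which is 28.6% of the positions of replicate 2, and at Klf3 for 4 of 41, or 57.1% of replicate 2. Over the whole libraries 26.0% of the positions of replicate 2 were also in replicate 1. The same share was 2.26% for the activator and 0.591% for the PTGR replicates. The repressor sorted replicates are therefore not clearly separate sets of insertions. The values of the replicates alone and the edgeR p-values treat them as separate. The Fisher test on the summed libraries counts a shared position once in each replicate. All of these values are to be read with this in mind. With the shared positions left out of both sorted replicates, an alternative chosen after seeing the data, the log2 odds ratio was 4.05 for Klf8 and 1.94 for Klf3 and both were still called.

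The pluripotency members were not called in any screen. Klf2 (chromosome 8, 72319033-72321656, plus strand), a factor of the naive state of mES cells, was measured best, with 333 background insertions. The repressor sorted replicates held 1 and 2 insertions (0.449 and 1.32 per 10000), both below the 2.40 to 3.89 of the 6 unsorted libraries. The log2 odds ratio of −2.03 ± 0.84 (SE) was below the screen's median of −1.04 by less than 2 standard errors, and edgeR did not call it (−1.19 ± 0.80 SE, adjusted p 0.464). In the activator screen Klf2 held 8 and 1 (−0.22 ± 0.49, SE) and in the PTGR screen 19 and 18 (−0.07 ± 0.25, SE). The 2 PTGR sorted values of 3.12 and 3.07 per 10000 lay within the range of the unsorted libraries.

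Klf4 (chromosome 4, 55527143-55532466, minus strand) had only 59 background insertions. It held 2 and 2 in the repressor sorted libraries (0.89 ± 0.75, SE, Fisher adjusted p 0.876), 1 and 3 in the activator ones (1.11 ± 0.75, SE, Fisher adjusted p 0.900) and 0 and 1 in the PTGR ones (−2.79 ± 1.45, SE). All 4 repressor sorted insertions of Klf4 were inside the gene, while 50 of the 59 background insertions were upstream of it. None of these 4 was assigned to the main acceptor. The acceptors they were assigned to had 91.3% (2 insertions), 23.3% (1) and 11.9% (1) of the coding region downstream, so the repressor values of Klf4 partly concern C-terminal fragments. With the assignment limited to 50 kb, the repressor value was 2.49 with a Fisher adjusted p of 0.0537, which missed the threshold. Klf5 (chromosome 14, 99298691-99315036, plus strand), which also acts in early embryo lineages, had 65 background insertions. It held 5 and 1 in the repressor (1.33 ± 0.62, SE, Fisher adjusted p 0.288), 1 and 0 in the activator and 5 and 2 in the PTGR sorted libraries. In the repressor screen the 95% interval of the odds ratio ran from 0.672 to 5.09 for Klf4 and from 1.09 to 5.81 for Klf5, and both include the 3.62 of Klf3. In the PTGR screen the upper ends were 1.05 and 2.01.

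Of the Sin3-binding members, the ones with many insertions were not enriched and the others were hardly sampled. Klf10 (chromosome 15, 38291463-38300706, minus strand), which is induced by transforming growth factor beta, had 323 background insertions. It held 3 and 2 in the repressor, 1 and 2 in the activator and 8 and 7 in the PTGR sorted libraries, and all 6 rates (0.575 to 1.36 per 10000) lay below those of the 6 unsorted libraries (2.27 to 3.96). Its log2 odds ratios were −1.24 ± 0.65, −1.76 ± 0.84 and −1.33 ± 0.38 (SE). The first and second lay within 2 standard errors of their screen's median and the third, in the PTGR screen, did not, but edgeR called none of them. The part of Klf10 downstream of its main acceptor starts at residue 13 and holds 97.5% of the coding region, including all 3 zinc fingers.

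Klf13 (chromosome 7, 63886351-63938915, minus strand) had 387 background insertions. It held 0 and 3 in the repressor (−2.24 ± 0.84, SE), 10 and 4 in the activator (0.20 ± 0.39, SE) and 11 and 19 in the PTGR sorted libraries (−0.59 ± 0.27, SE). In the activator screen the replicates stood at 5.75 and 2.72 per 10000, above and below the whole range of the unsorted libraries (2.77 to 4.59). By the assigned acceptor, these values concern a fragment with 2 of the 3 zinc fingers, and not the part that binds Sin3. Klf16 (chromosome 10, 80567124-80577321, minus strand), with the same limit, had 13 background insertions and 0 in the activator and repressor sorted libraries, and 1 in the PTGR ones. Klf11 (chromosome 12, 24651274-24662789, plus strand) had 17 background insertions and held 2 and 1 in the activator sorted libraries. Its odds ratio there was 5.62 with a 95% interval from 1.65 to 19.2, and its Fisher adjusted p of 0.287 missed the threshold. In the repressor screen it held 1 and 1, too few to be tested.

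The genes around these members in the same pathways were described by count. Of the other Klf genes in the tables (6 of 7 looked for, Klf14 not analysed here), 0 were called, with 2, 2 and 4 tested in the activator, repressor and PTGR screens. Of the 9 Sp genes, the nearest relatives of the Klf genes with the same type of zinc fingers, 3 of the 4 tested were called in the repressor screen, against 0 of 4 in the activator and 0 of 7 in the PTGR screen. Sp1, a general activator of GC-box promoters, had a repressor log2 odds ratio of 5.04 ± 0.10 (SE, 231 and 216 insertions), Sp2 one of 5.36 ± 0.23 (60 and 42) and Sp3 one of 5.90 ± 0.08 (598 and 435). All 3 lay above the value of Klf8.

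Of 9 CtBP partners, 4 of the 7 tested were called in the repressor screen. They were the histone methyltransferases Ehmt2 (5.52 ± 0.27, SE) and Ehmt1 (4.05 ± 0.49), the demethylase Kdm1a (4.24 ± 0.35) and its partner Rcor2 (5.86 ± 0.10). CtBP itself was sampled sparsely, with Ctbp2 at 2.77 ± 0.61 (SE, 6 and 1 insertions, Fisher adjusted p 0.00229) and Ctbp1 at 1.91 (Fisher adjusted p 0.219), and neither was called. Of 16 Sin3 partners 1 of 5 tested was called, Arid4b (3.39 ± 0.44, SE). Sin3 itself was too sparse to judge. Sin3a and Sin3b held 1 and 0 insertions in both repressor sorted libraries together, too few to be tested, against 8 and 3 in the background. Of 4 coactivators, Crebbp and Ep300 were called in the activator screen (3.03 ± 0.24 and 5.43 ± 0.11, SE), 2 of 3 tested, and Ep300 also in the PTGR screen (2.39 ± 0.14). Of 3 coactivators tested in the repressor screen 0 were called.

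Among the 192 genes called here in the repressor screen, Klf8 ranked 112th by log2 odds ratio and 16th by sorted insertions, and Klf3 185th and 92nd. The study itself reports more repressor hits than these 192. The genes whose values over the 6 sorted libraries were nearest to those of Klf8, by Euclidean distance between log2 rates over 8987 genes, were Kars (1.16), Zfp423 (1.19) and Atf7ip (1.46), all 3 called in the repressor screen. The nearest to Klf3 were Daxx (1.22), Zfp462 (1.27) and Gldc (1.33), none of them called. The likeness is a description over 6 libraries, and says nothing of shared function.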

How the data were processed

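Genomic DNA of mouse ES cells was used for inverse PCR and sequencing of the sites of insertion in 12 libraries. The authors trimmed reads (Trim Galore 0.6.0 and SAMtools 1.9 per the submitters' processing notes), aligned them to mm10 with Bowtie2, removed duplicates and gave every insertion to the closest exon downstream of it among protein-coding transcripts, first exons excepted, on its own strand and, as a control, on the opposite one. The 24 deposited lists hold 1 line per insertion (position, exon and distance, other values with no read counts), and the 3 deposited screen tables hold counts of insertions per gene pooled by the authors. The screen tables also hold the authors' own odds ratios, p-values and calls, which were not used.

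Insertions were counted per gene and library from the lists, each position once, within 200 kb. Positions were listed more than once at all positions of both repressor unsorted libraries and at 12.7% of those of 1 PTGR sorted library, and were counted once. Fisher's exact test (one-sided, scipy 1.17.1) with Benjamini-Hochberg adjustment over all genes tested was the main test, as in the study. edgeR 4.0.16 (R 4.3.3, TMM, filterByExpr, adjusted p under 0.05) and DESeq2 1.42.0 compared sorted with unsorted libraries of 1 screen. The Fisher test and the edgeR test within 1 screen were tried on simulated counts, and the other steps were not. Gene models were GENCODE vM21, while the authors used vM25. Sequences came from GRCm38. Protein motifs and zinc fingers were found in the translated coding regions. Genes nearest in pattern were ranked over genes with at least 20 background insertions, with a pseudocount of 0.5.

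The members, the gene lists and the tests were chosen with earlier results of these data known. Every member was named with its values in each screen, and of the lists each gene called by the Fisher test in any screen, with Ctbp1, Ctbp2, Sin3a and Sin3b added after their values were seen. Alternatives were the distance limit, the screen's own unsorted libraries as background, other count minimums, repeated positions kept, other tests and scalings, and each replicate left out. Replicates are those of the labels, and no sample was left out.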

Additional observations from a re-analysis of the deposited data

Results flagged for a closer look

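A test of the difference between screens set 2 members apart, in an edgeR fit over all 12 libraries that was added after the values were seen. The sorted-to-unsorted log2 change of Klf8 was 4.06 larger in the repressor than in the activator screen and 4.77 larger than in the PTGR screen. That of Klf3 was 3.93 larger than in the activator and 2.54 larger than in the PTGR screen. Over the 6 unsorted libraries, no Klf rate stood apart from the others by a test for single outlying values (10 tested, 0 beyond its limit).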

How the results depend on the processing

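Klf8 kept its call in the repressor screen in all 15 Fisher settings (log2 odds ratio 3.54 to 4.18) and all 9 edgeR or DESeq2 settings (2.61 to 4.47). Klf3 kept it in 14 of 15 Fisher settings (0.47 to 3.14) and 5 of 9 of the latter (0.84 to 3.10). No member's direction reversed past a threshold. In the repressor screen the Fisher test called 1 to 2 members with a replicate left out. There edgeR called 5 with scaling by library size alone (Klf3 and Klf8 higher, Klf2 at −2.33, Klf10 at −1.77 and Klf13 at −2.72 lower), 1 without a filter on low counts (Klf8), and 1 to 2 with a replicate left out. Without sorted replicate 2 the 2 were Klf8 and Klf3 (3.10). Without unsorted replicate 2 they were Klf8 (2.65) and Klf13 (−3.27), and Klf3 was not called (0.99). In that fit, with 1 unsorted library left, the median gene stood at −1.24, so a value below 0 was common. Only Klf8 was called without sorted replicate 1 or without unsorted replicate 1. The excess of sense insertions at the 10 genes over the background was 42.0 percentage points in the repressor screen and 39.3 against its own unsorted libraries. In the activator screen it was 2.93, and −0.348 to 4.27 with a replicate left out. The causes were not tested.

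The labels do not say that replicate numbers pair the libraries, and same-numbered deviations correlated at 0.0643, −0.0299 and 0.334 in the activator, repressor and PTGR screens. Sorted replicates shared more positions with the unsorted library of the same number in the activator (4.96 and 19.5% against 2.25 and 1.46% with the other) and PTGR screens (18.2 and 6.76% against 0.342 and 1.79%), a hint from the data that the numbers pair these, and in the repressor screen only replicate 2 did (8.17 and 8.23% against 9.86 and 5.03%). With the replicate number as a block, edgeR and the Cochran-Mantel-Haenszel test called 0, 2 and 0 members, the 2 being Klf3 (1.85 in the latter) and Klf8 (3.54). Over all genes, the PTGR Fisher calls went from 62 to 39 in that test and to 40 against the screen's own unsorted libraries, and the repressor edgeR calls from 232 to 1518 with library size alone, 74 without a filter and 100 without sorted replicate 1. Depth limits Klf4, Klf5, Klf11, Klf12 and Klf16 most, with 13 to 65 background insertions each.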
